A study of Mus musculus with 4 samples.

Results

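Chemokine ligands were taken as the noncontrol probes whose gene symbol on the array begins with Ccl, Cxcl or Cx3cl, followed by a number and at most 1 letter. The rule found 34 genes on 43 probes and 52 spots per array, of 41174 probes and 43379 spots in all: 20 CC ligands, 13 CXC ligands and the CX3C ligand Cx3cl1. Cells were iHep cells, hepatocyte-like cells induced from cells that the labels name MDFs, from C57BL/6 mice. The groups compared were 3D culture of iHep-1 and iHep-2 and 2D culture of iHep-1 and iHep-2, where iHep-1 and iHep-2 are independent experiments. Each group had 2 arrays, 1 from each experiment, and the titles of the 2D arrays alone carry a plus sign whose meaning the sources used here do not give, so that whatever it marks cannot be told apart from culture. The labels give no age, no agent and no statement on pooling, and 4 arrays limit the precision. Of 5 hepatocyte markers, 4 were on the array under their symbol (Alb, Ttr, Apoa1 and Apob). All 4 were well above background on every array, against 52.1% of all gene symbols.

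Chemokines are small secreted proteins that bind glycosaminoglycans and signal through G protein-coupled receptors to steer leukocytes. They are classed by the spacing of their first cysteines (CC, CXC, CX3C), and many lie in gene clusters that arose by duplication. Inflammatory members are switched on by NF-kB and interferon signalling, while homeostatic members such as Cxcl12 are made without such a stimulus. In liver, hepatocytes, biliary cells, stellate cells, endothelium and macrophages are all known to make some of them.

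Levels below are log2 signals after background correction, relative to the 75th percentile of the same array, so that 0 is the signal of a bright probe and negative values are dimmer. For each group the iHep-1 value comes first and the iHep-2 value second, and differences are 3D minus 2D in the same order. A probe counts as well above background by the scanner software's own flag, and the dimmest such signals lay at -6.06 and -5.56 in 3D and at -5.98 and -6.22 in 2D. The 75th percentiles themselves were 594 and 399 intensity units in 3D, against 523 and 616 in 2D. In bulk cultures, a change in the share of cells that make a chemokine and a change in RNA per cell cannot be told apart. Levels of different probes are not comparable, since each probe binds with its own strength.

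Well above background on at least 1 array were 21 of the 34 genes (61.8%), close to the 63.7% of all 27975 gene symbols. They numbered 20 and 17 in 3D and 18 and 19 in 2D, and 16 were well above background on all 4 arrays. By class these were 11 of 20 CC ligands, 9 of 13 CXC ligands and Cx3cl1. On no array were Ccl1, Ccl3, Ccl4, Ccl8, Ccl11, Ccl12, Ccl21b, Ccl22, Ccl24, Cxcl3, Cxcl9, Cxcl11 or Cxcl13 well above background. Signals of these 13 genes stayed between 1.68 and 7.11 intensity units. Detection cut across the chemokine gene clusters, whose positions are those of the array's probes on mouse build mm9. In the chromosome 11 cluster from 81850650 to 81990395, Ccl2 and Ccl7 were detected and Ccl11, Ccl12, Ccl8 and Ccl1 were not. In the cluster from 83339296 to 83478111 on the same chromosome, Ccl5, Ccl9 and Ccl6 were detected and Ccl3 and Ccl4 were not. On chromosome 5, the cluster from 91190205 to 91334593 had 4 of 5 genes detected, all but Cxcl3, whereas the cluster from 92752191 to 92790274 had Cxcl10 detected without Cxcl9 or Cxcl11. On chromosome 8, Cx3cl1 and Ccl17 were detected and Ccl22 between 97274709 and 97335829 was not.

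**Figure D1:**
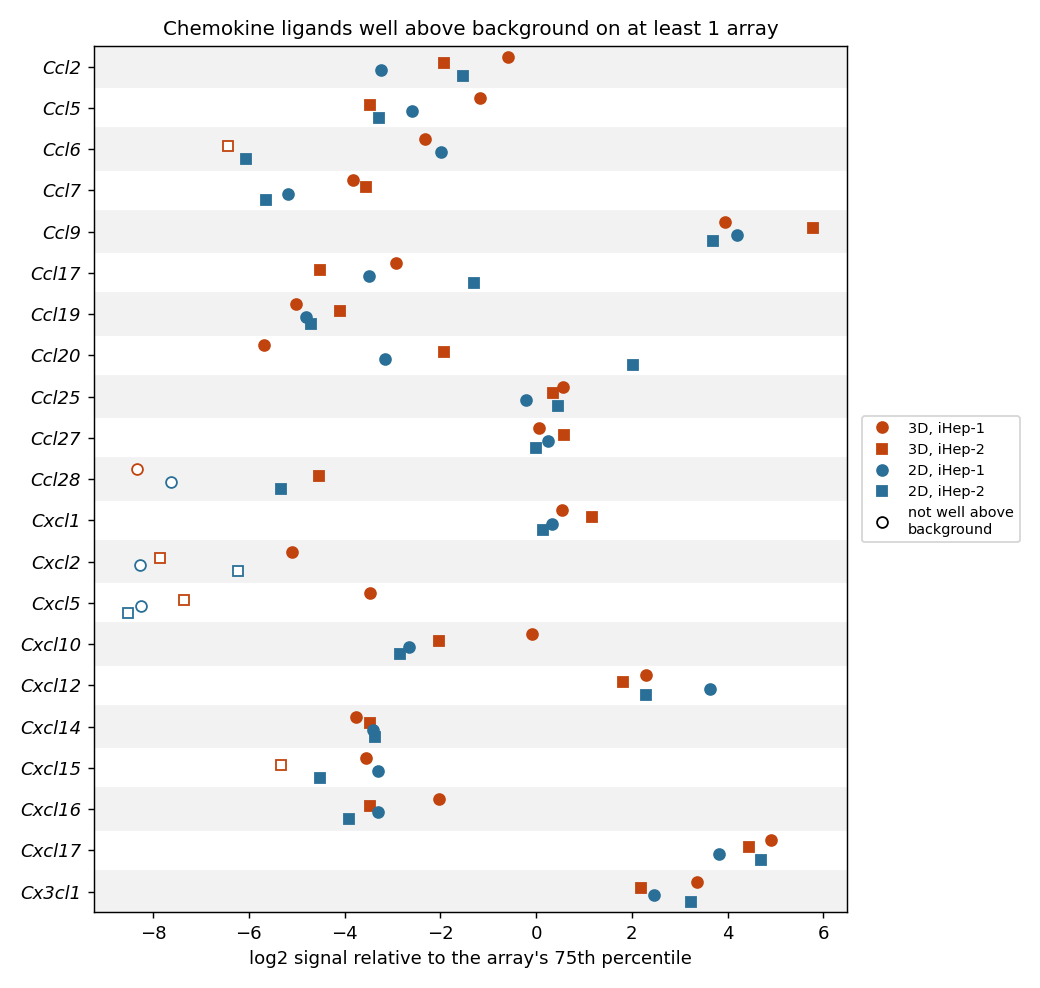
Log2 signal relative to the array's 75th percentile (x axis) for the 21 chemokine ligands well above background on at least 1 array (rows, each by its brightest probe). Orange marks are 3D and blue marks 2D, circles iHep-1 and squares iHep-2, and open marks are not well above background; Ccl7 is higher in both 3D cultures, and Ccl6, Ccl20 and Ccl28 separate by experiment.

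The comparison of 3D with 2D asks how chemokine expression differed between the culture formats. Ccl7 exceeded its 2D signal 2-fold or more in iHep-1 and in iHep-2, and Ccl20 lay 2-fold or more below it in each; no other ligand among the 19 tested met either mark by its brightest probe. Tested were 19 of the 34 genes, those with a probe above background by that flag on 2 or more arrays, among 16450 genes. By limma 0 members passed an adjusted p of 0.05, as did 0 of all genes (0%), and 1 member, Ccl7, had an unadjusted p under 0.05 (7.03% of all genes). The adjusted p of the 19 members lay between 0.684 and 0.996 (limma), so the culture differences below are descriptions of 2 experiments.

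By size, 1 of 19 members was higher by 2-fold or more in each experiment, against 4.26% of all genes, and 1 was lower by as much, against 2.13%. Both 3D values lay above both 2D values for Ccl7, Cxcl1 and Cxcl10, and below them for Cxcl14, which makes 4 of 19 members against 41.4% of all genes (3 higher, against 19.8%, and 1 lower, against 21.5%). The members' median difference was 0.20, against 0.019 for all genes tested; it was 0.21 in iHep-1 and -0.11 in iHep-2. When arrays were scaled to the added spike-in RNAs, the median of all genes was -1.08 and that of the members -0.90. Higher and lower are therefore read against the remaining genes on each array. The shift was unequal, with medians of all genes at -1.70 in iHep-1 and -0.48 in iHep-2. Mean log2 spike-in signals were 9.89 and 8.63 in 3D, against 8.03 and 8.74 in 2D. Of the 19 members, 4 were higher in both experiments (33.2% of all genes), 5 were lower in both (33%) and 10 differed in sign (33.8%). These counts use the brightest probe, and a second probe of Cxcl15, 1 of the 5, was higher in 3D in iHep-1.

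In iHep-1, 6 members were at least 2-fold higher in 3D (Ccl2, Cxcl10, Ccl5, Ccl7, Cxcl16 and Cxcl17; 7.8% of all genes) and 2 were at least 2-fold lower (Ccl20 and Cxcl12; 4.07%). In iHep-2, 3 were at least 2-fold higher (Ccl9, Ccl7 and Cxcl1; 12.6%) and 3 at least 2-fold lower (Ccl20, Ccl17 and Cx3cl1; 8.32%). These counts cover the tested members and not the dim ones.

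**Figure D2:**
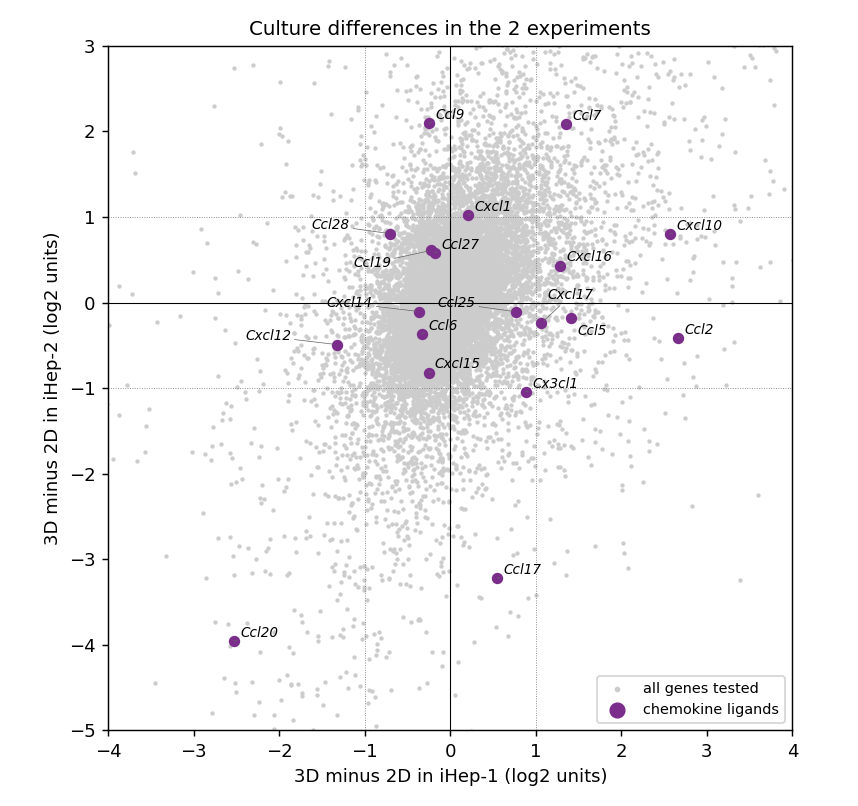
Difference between 3D and 2D in iHep-1 (x axis) and in iHep-2 (y axis), in log2 units, for the 19 tested chemokine ligands (purple, named) and all 16450 genes tested (grey; 480 lie beyond the axes). Dotted lines mark 2-fold; Ccl7 lies in the corner of shared higher and Ccl20 in that of shared lower signals, and 10 ligands lie in the quadrants of opposite sign.

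Ligands that attract monocytes, which act through the receptor Ccr2, were represented by Ccl7 and Ccl2. Ccl7 stood at -3.83 and -3.55 in 3D, against -5.18 and -5.64 in 2D. Both 3D arrays thus lay above both 2D arrays, by 2.55-fold in iHep-1 and 4.24-fold in iHep-2. The mean was -3.69 ± 0.20 in 3D and -5.41 ± 0.32 in 2D (SD, n = 2 each), with a difference of 1.72 (SE 0.29; adjusted p = 0.684, limma). A second Ccl7 probe lay at -3.07 and -4.48 in 3D, against -6.76 and -6.22 in 2D, where neither array was well above background, which puts 3D at least 5.01-fold higher. The mean difference of the tested probe was 0.60 to 1.94 under the 13 alternatives that used it, and 2.22 when both probes were averaged. It was 0.62 with spike-in scaling, where the iHep-1 difference of this probe turned negative and the iHep-2 difference stayed positive. The 2 probes are shown because both gave the same direction from separate stretches of the transcript, the first at chr11:81860504-81860563 and the second at chr11:81860656-81860715 of mm9 on the plus strand.
Ccl7 tested probe: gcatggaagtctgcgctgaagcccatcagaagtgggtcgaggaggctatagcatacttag
Ccl7 second probe: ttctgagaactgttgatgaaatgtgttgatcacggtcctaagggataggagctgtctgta

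Ccl2, the main monocyte chemoattractant and the neighbour of Ccl7, was printed as 10 spots per array at chr11:81850650-81850709, which gives the spot-to-spot error within an array and says nothing of the spread between cultures. Unscaled, the spots ranged from 375 to 438 intensity units in 3D of iHep-1, against 51.3 to 59.7 in 2D of iHep-1. In iHep-2 they ranged from 87.4 to 121 in 3D, against 197 to 237 in 2D. The 3D array was the brighter one in iHep-1 and the dimmer one in iHep-2, with 1 array of each. The SD over the 10 spots was 0.068 and 0.12 log2 units in 3D and 0.077 and 0.088 in 2D. Scaled levels were -0.58 and -1.93 in 3D, against -3.25 and -1.52 in 2D, a difference of 2.66 in iHep-1 and -0.41 in iHep-2. The mean difference was 1.13 (SE 0.84; adjusted p = 0.762, limma), and the groups overlapped. Before scaling, the differences were 2.85 and -1.04 log2 units. Ccl8 and Ccl12, further ligands of the same cluster, were not well above background on any array.

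Ligands of Cxcr2, which draw neutrophils, included Cxcl1, the one well above background on all 4 arrays. Cxcl1 stood at 0.53 and 1.17 in 3D, against 0.32 and 0.15 in 2D, so that both 3D values lay above both 2D values, with differences of 0.21 and 1.03 (mean 0.62, SE 0.32; adjusted p = 0.704, limma). Cxcl5 was well above background in 3D of iHep-1 alone, at -3.48 and -7.36 in 3D against -8.26 and -8.53 in 2D. Within iHep-1, with 1 array of each culture, 3D was at least 5.68-fold higher. Cxcl2, a close relative of Cxcl1, was likewise well above background on the 3D array of iHep-1 alone, with -5.10 and -7.85 in 3D against -8.26 and -6.22 in 2D, or at least 1.84-fold higher within iHep-1. Cxcl3 was not well above background on any array. Cxcl15, known in mouse as lungkine for its expression in lung epithelium, stood at -3.55 and -5.33 in 3D, against -3.29 and -4.51 in 2D. Its culture values overlapped (differences -0.25 and -0.82), and its 3D value in iHep-2 was not well above background. A second Cxcl15 probe gave 0.23 and -0.40, with neither iHep-2 array well above background, so the sign in iHep-1 depended on the probe.

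Ccl20, the ligand of Ccr6, had the largest negative mean difference of the tested members. It stood at -5.68 and -1.93 in 3D, against -3.15 and 2.03 in 2D. In each experiment the 3D array was lower, with differences of -2.53 in iHep-1 and -3.96 in iHep-2, but the groups overlapped because both iHep-2 arrays lay above both iHep-1 arrays. The mean difference was -3.24 (SE 2.40; adjusted p = 0.758, limma; adjusted p = 0.237 with the experiment as a block). It was called lower with spike-in scaling alone (adjusted p = 0.00121, limma), where the groups still overlapped. Under that scaling the lowest adjusted p of any gene was 3.1e-24, against 0.496 in the main fit (limma). The call thus rests on the spread that limma takes from all genes, and not on separated Ccl20 signals. Leaving out the 2D array of iHep-2 gave -0.65, and leaving out that of iHep-1 gave -5.84. Its probe lies at chr1:83115500-83115559 of mm9.

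Promoters of the Cxcr2 ligands and of Ccl20 are shown because these genes are classical NF-kB targets and their culture differences had different signs. RefSeq promoter sequences, from 250 bases before to 50 after the gene start on build GRCm38.p6, were matched for 24 of the 34 genes (27 promoters). A form of the NF-kB site, GGG followed after any 2 bases by TTTCC and read on both strands, was found in 5 of these 27 promoters (18.5%) against 1.63% of 32851 promoters of all genes, with no test. The 5 were those of Cxcl1, Cxcl2, Cxcl3, Ccl9 and Ccl20, and those of Cxcl1, Cxcl2 and Cxcl3 are neighbours related by duplication and not independent. Culture differences of the genes with it were 0.21 and 1.03 for Cxcl1, -0.25 and 2.10 for Ccl9 and -2.53 and -3.96 for Ccl20. Cxcl2, measured above background in 3D of iHep-1 alone, was at least 1.84-fold higher in 3D there, and Cxcl3 was not detected. The lines below give 120 bases, from 120 to 1 before the gene start, 5′ to 3′ on the gene's strand, with the motif in capitals (Cxcl1 chr5:90891125-90891244, Cxcl2 chr5:90903779-90903898, Cxcl3 chr5:90785981-90786100 and Ccl20 chr1:83116646-83116765, plus strand; Ccl9 chr11:83578637-83578756, minus strand).
Cxcl1: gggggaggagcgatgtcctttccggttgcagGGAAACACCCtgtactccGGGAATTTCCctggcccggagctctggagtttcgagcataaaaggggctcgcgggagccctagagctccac
Cxcl2: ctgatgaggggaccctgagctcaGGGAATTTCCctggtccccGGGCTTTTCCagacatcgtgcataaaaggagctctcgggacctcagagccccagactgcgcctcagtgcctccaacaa
Cxcl3: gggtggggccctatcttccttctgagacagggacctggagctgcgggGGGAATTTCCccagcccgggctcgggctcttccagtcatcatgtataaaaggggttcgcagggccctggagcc
Ccl9: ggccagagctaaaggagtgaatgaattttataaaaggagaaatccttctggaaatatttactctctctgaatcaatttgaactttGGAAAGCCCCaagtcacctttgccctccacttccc
Ccl20: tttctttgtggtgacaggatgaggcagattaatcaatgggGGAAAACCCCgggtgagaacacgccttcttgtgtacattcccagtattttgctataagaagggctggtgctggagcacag

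Ligands that attract activated T cells and natural killer cells were detected in part. Cxcl10, an interferon-inducible ligand of Cxcr3, stood at -0.096 and -2.03 in 3D, against -2.66 and -2.84 in 2D. Both 3D values lay above both 2D values, with differences of 2.57 and 0.80 (mean 1.69, SE 0.76; adjusted p = 0.686, limma). The mean difference ran from 0.59 to 2.66 over the 14 alternatives run. Leaving out an array could not reverse its sign, since the groups did not overlap. The filters, the mean of probes, the block and the trended prior left it unchanged. Cxcl9 and Cxcl11, the other ligands of Cxcr3, were not well above background on any array. A form of the interferon-stimulated response element is TTTC repeated after any 2 bases, read on both strands. It was found in 3 of the 27 promoters (Ccl19, Cxcl10 and Cxcl14; 11.1%) against 3.44% of all promoters. None of the 27 held both this form and the NF-kB form above. Other forms of either site were not searched, so a promoter without a match here may still hold such a site. The Cxcl10 promoter is shown from 250 to 131 bases before the gene start (chr5:92349020-92349139 of GRCm38.p6, minus strand) with this motif in capitals.
Cxcl10: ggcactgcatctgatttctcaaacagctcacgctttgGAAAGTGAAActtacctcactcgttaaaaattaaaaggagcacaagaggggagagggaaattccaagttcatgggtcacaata

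Ccl5, an attractant of T cells and monocytes, stood at -1.18 and -3.46 in 3D, against -2.60 and -3.28 in 2D. It was brighter in 3D in iHep-1 (1.42) and near level in iHep-2 (-0.18), and the groups overlapped (mean 0.62, SE 0.91; adjusted p = 0.875, limma). A second Ccl5 probe gave 1.53 and -0.64, with the 3D signal of iHep-2 not well above background. Ccl3 and Ccl4, macrophage inflammatory proteins of the same gene cluster, were not well above background on any array.

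Cxcl12, the homeostatic ligand of Cxcr4 and Ackr3, was lower in 3D by both of its probes. The tested probe stood at 2.30 and 1.81 in 3D, against 3.62 and 2.30 in 2D. Within each experiment the 3D array was dimmer, by differences of -1.32 and -0.49, but the 3D value of iHep-1 and the 2D value of iHep-2 were level, so the groups overlapped. The mean difference was -0.91 (SE 0.57; adjusted p = 0.724, limma; adjusted p = 0.385 with the experiment as a block). The other probe, assigned on the array to a different transcript record, stood at -0.50 and -0.87 in 3D, against 1.85 and 0.24 in 2D. By that probe the differences were -2.35 and -1.11, past 2-fold in both experiments and without overlap of the groups. Both probes are shown because they lie apart in the gene and differ in the size of the difference, the tested one at chr6:117131227-117131286 and the other at chr6:117124474-117124533 of mm9, plus strand.
Cxcl12 tested probe: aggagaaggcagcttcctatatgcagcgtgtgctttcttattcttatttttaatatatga
Cxcl12 other probe: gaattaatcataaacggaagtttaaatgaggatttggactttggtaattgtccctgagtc

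Cxcl14, a homeostatic ligand of epithelia, stood at -3.77 and -3.47 in 3D, against -3.40 and -3.36 in 2D. The difference of -0.23 (SE 0.23; adjusted p = 0.806, limma) was small although the groups did not overlap.

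**Figure D3:**
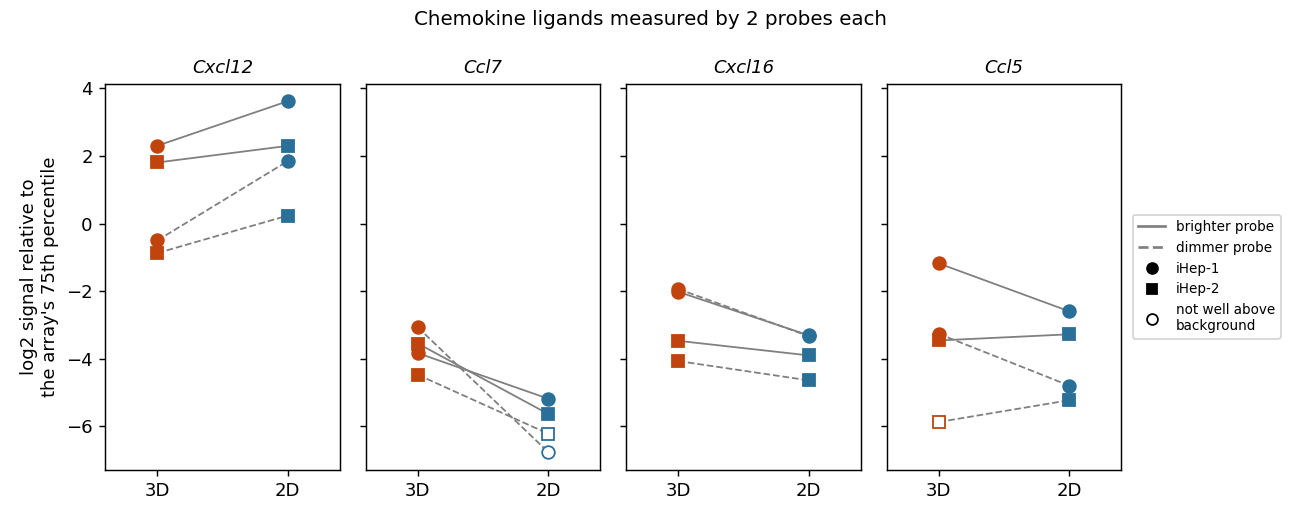
Log2 signal relative to the array's 75th percentile (y axis) in 3D and 2D for 4 chemokine ligands with 2 probes each; solid lines join the brighter and dashed lines the dimmer probe within an experiment. Circles are iHep-1, squares iHep-2 and open marks are not well above background; both probes of Cxcl12 slope the same way in both experiments, as do both of Ccl7 and of Cxcl16, while Ccl5 is higher in 3D in iHep-1 alone.

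Cx3cl1 and Cxcl16 are made as membrane-tethered proteins that can be shed by the proteases Adam10 and Adam17. Cxcl16, the ligand of Cxcr6, stood at -2.02 and -3.47 in 3D, against -3.31 and -3.90 in 2D. It was higher in 3D in both experiments, by 1.29 and 0.43, and its other probe gave 1.39 and 0.57, yet the groups overlapped (mean 0.86, SE 0.62; adjusted p = 0.754, limma). Cx3cl1, or fractalkine, stood at 3.36 and 2.18 in 3D, against 2.47 and 3.23 in 2D. Its differences of 0.88 and -1.04 were nearly equal in size and opposite in sign (adjusted p = 0.978, limma). Another Cx3cl1 probe was well above background on 1 array, 2D of iHep-2, and stood at -6.20 and -6.38 in 3D, against -6.21 and -6.05 in 2D. Adam10 differed by 0.087 and -0.27 and Adam17 by -0.21 and -0.37.

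Ccl9 and Ccl6 are chemokines of mice that bind Ccr1 and attract myeloid cells. Ccl9 stood at 3.94 and 5.78 in 3D, against 4.19 and 3.69 in 2D, and the 3D array of iHep-2 was the high one. The differences were -0.25 and 2.10 (mean 0.92, SE 0.74; adjusted p = 0.77, limma). Ccl6 had culture differences of -0.33 and -0.37 (adjusted p = 0.975, limma), with -2.33 and -6.43 in 3D against -1.99 and -6.07 in 2D.

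Chemokines of mucosal and skin epithelia included Ccl25, Ccl27, Ccl28 and Cxcl17. Cxcl17, known from mucosal tissues, stood at 4.90 and 4.45 in 3D, against 3.83 and 4.69 in 2D (differences 1.07 and -0.24; adjusted p = 0.806, limma). Ccl25, the Ccr9 ligand of thymus and small intestine, stood at 0.56 and 0.35 in 3D, against -0.20 and 0.45 in 2D, and its other probe gave differences of the same signs (0.64 and -0.21). Ccl27, a Ccr10 ligand known from skin, stood at 0.070 and 0.59 in 3D, against 0.25 and 0.0056 in 2D. Neither separated the cultures (adjusted p = 0.806 for Ccl25 and 0.876 for Ccl27, limma). Ccl28, a mucosal ligand of Ccr10, was detected in iHep-2 alone, at -8.33 and -4.53 in 3D against -7.63 and -5.34 in 2D.

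Among chemokines of lymphoid homing and of dendritic cells, Ccl17 and Ccl19 were detected. Ccl17, a ligand of Ccr4, stood at -2.93 and -4.52 in 3D, against -3.48 and -1.30 in 2D. The 2D array of iHep-2 was the high one, which gave differences of 0.55 and -3.22 (mean -1.34, SE 1.03; adjusted p = 0.767, limma). Ccl19, a ligand of Ccr7, stood at -5.02 and -4.09 in 3D, against -4.80 and -4.70 in 2D by 1 probe, while its other probe was not well above background on any array. Ccl21b, Ccl22 and Cxcl13 were not well above background on any array, and neither were Ccl1, Ccl11 and Ccl24; the accession of the Ccl21b probe belongs to Ccl21a in RefSeq.

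The 2 independent experiments were compared in the same way. Here the 3D and 2D arrays of an experiment stand in as its 2 replicates. The p-values and SEs therefore measure the spread between cultures within an experiment, and not the spread between repeated experiments. Ccl6 fell in iHep-2 relative to iHep-1, Ccl20 was at least 2-fold higher in iHep-2 in both cultures, and Ccl28 was detected in iHep-2 alone. Of the 19 tested members, 1 passed an adjusted p of 0.05 by limma, against 0.328% of all genes (0.128% higher and 0.201% lower), and 3 had an unadjusted p under 0.05, against 12.7%. Ccl28 is among these 3 and in the counts of higher members below, although it passed the filter through the iHep-2 arrays alone. Its place in them is therefore no support. By measured signals 2 members, Ccl20 and Ccl28, were at least 2-fold higher in both cultures (5.12% of all genes), and 2, Ccl6 and Cxcl15, were at least 2-fold lower (5.74%). The iHep-1 signals of Ccl28 were below background, and against the lowest signal above it Ccl28 was at least 2.88-fold higher in 3D and at least 1.56-fold higher in 2D, so that Ccl20 alone is shown to pass 2-fold in both. The 2 experiments did not overlap for 8 members, 3 of them higher in iHep-2, against 41.7% of all genes. The median difference, iHep-2 minus iHep-1, was 0.17 for the mean of both cultures but -0.45 in 3D and -0.17 in 2D, and the mean over members was -0.010, so the sign of this summary is not settled. It was -0.0049 for all genes.

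Ccl6 had levels of -6.43 (3D) and -6.07 (2D) in iHep-2, against -2.33 and -1.99 in iHep-1. It fell by 4.09 log2 units (SE 0.29; adjusted p = 0.0474, limma), with -4.11 in 3D and -4.08 in 2D. That SE reflects how alike the 3D and 2D arrays were within each experiment. Its 3D signal of iHep-2 was not well above background, so that the 3D fold is bounded at 9.39-fold or more lower. The call was past the threshold in 6 of the 13 alternatives that tested it (adjusted p from 0.017 to 0.395, limma), and it was lost when any of the 4 arrays was left out (0.0991 to 0.395). With normexp background correction the difference was -1.35 (adjusted p = 0.174, limma). Its probe lies at chr11:83401997-83402056 of mm9, minus strand.

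Markers of myeloid cells were measured beside it. Of 10 macrophage and other leukocyte markers, 7 were well above background on at least 1 array, near the 63.7% of all gene symbols. They numbered 5 on each 3D array and 6 and 5 on the 2D arrays. Ptprc, the pan-leukocyte marker CD45, and Itgam and Laptm5 were on none. Lyz2, a lysozyme of macrophages, differed between iHep-2 and iHep-1 by -5.40 in 3D and -3.63 in 2D (adjusted p = 0.146, limma). Cd14 differed by -2.08 and -1.17, Cd68 by -1.68 and -0.15, Fcer1g by 0.74 and -0.022 and Csf1r by 0.90 and 3.69, so the tested markers did not move together. The list's summed signal was 1007 (3D) and 1648 (2D) in iHep-2, against 6272 and 3579 intensity units in iHep-1. Most of it was Cd14, at 861 and 1404 in iHep-2, against 5439 and 2693 in iHep-1. The part of such cells in the Ccl6 difference was not tested.

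Ccl20 had levels of -1.93 (3D) and 2.03 (2D) in iHep-2, against -5.68 and -3.15 in iHep-1. It was thus higher in iHep-2 by 3.76 in 3D and 5.19 in 2D (mean 4.47, SE 1.68; adjusted p = 0.415, limma). Ccl28 was well above background on both iHep-2 arrays and neither iHep-1 array, which puts iHep-2 at least 2.12-fold higher. It passed the filter through the iHep-2 arrays alone, so its p-value is left out. Cxcl15 was lower in iHep-2, by differences of -1.78 in 3D and -1.21 in 2D (adjusted p = 0.247, limma), and so was Ccl5, by -2.28 and -0.68 (adjusted p = 0.415, limma). The biliary markers Krt7 and Krt19, which are keratins of ductal epithelium, differed in the direction of Ccl20, by 0.98 and 3.45 and by 1.17 and 2.85. Of 4 biliary markers all 4 were well above background on every array, against 52.1% of all gene symbols. The list's summed signal was 11154 (3D) and 20139 (2D) in iHep-2, against 7882 and 2594 in iHep-1, and its part in the Ccl20 difference was not tested.

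Ccl2 and Ccl17 were more than 2-fold apart between the experiments in opposite directions in the 2 cultures. In iHep-2 minus iHep-1, Ccl2 differed by -1.35 in 3D and 1.73 in 2D, and Ccl17 by -1.59 and 2.18. These were 2 of 19 members, against 1.43% of all genes.

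**Figure D4:**
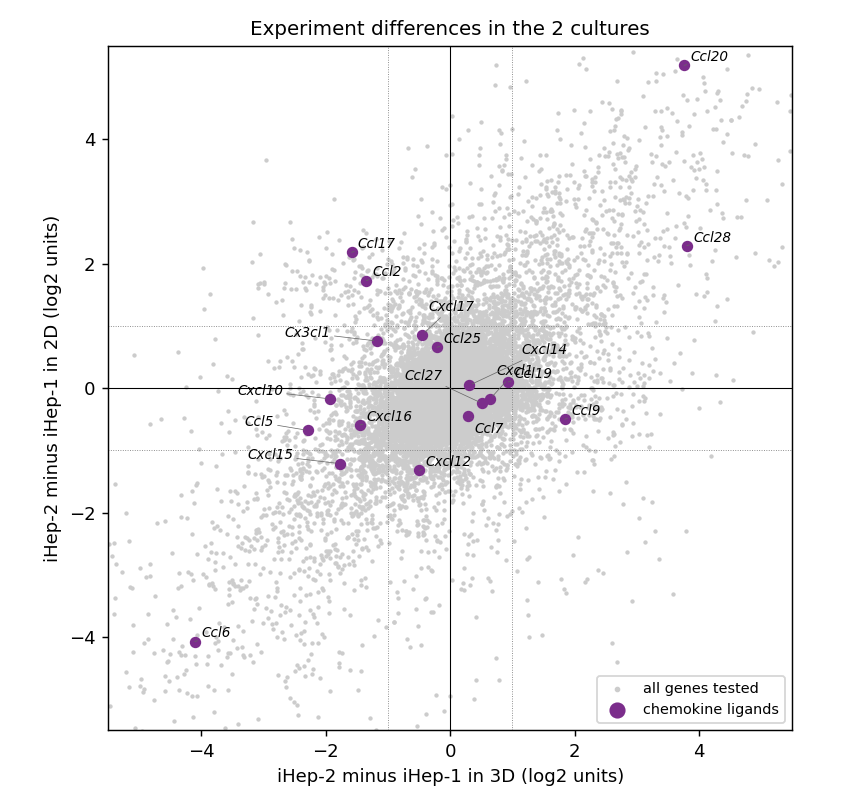
Difference between iHep-2 and iHep-1 in 3D (x axis) and in 2D (y axis), in log2 units, for the 19 tested chemokine ligands (purple, named) and all 16450 genes tested (grey; 200 lie beyond the axes). Ccl20 lies in the corner of shared higher signals, as does Ccl28 by iHep-1 signals below background, and Ccl6 in that of shared lower signals, and Ccl17 and Ccl2 lie at upper left.

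Chemokine receptors were detected in part. Of 23 chemokine receptor genes, 10 were well above background on at least 1 array, against 63.7% of all gene symbols, and 5 on at least 2. Of these, 0 passed the test between cultures or between experiments. Ccrl2 and Xcr1 were well above background on all 4 arrays, with culture differences of 0.77 and -0.13 and of -1.04 and 1.59. Ccr1, Ccr2, Ccr7, Ccr9, Ccr10, Cxcr2, Cxcr6 and Cx3cr1, receptors of detected ligands, were on none. Ackr2, a decoy receptor that removes inflammatory CC chemokines, differed by 0.54 and 3.46 between 3D and 2D, and Cxcr4 by 0.85 and 1.60, where the iHep-2 values of Cxcr4 were not well above background. Ackr3, which scavenges Cxcl12, differed by -0.67 and -3.14 and was well above background on both 2D arrays and neither 3D array. Ccr6, the receptor of Ccl20, was well above background on 2D of iHep-2 alone, at 11.8 intensity units. Ccr4, the receptor of Ccl17, was so on 3D of iHep-2 alone (11.7), where Ccl17 was dimmest. Cxcr3, the receptor of Cxcl10, was so on 3D of iHep-1 alone (13.9), where Cxcl10 was brightest. These signals lay near the lowest flagged ones, and whether receptors and ligands go together was not tested.

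The cytokines that classically induce chemokines were largely below detection. Of 13 listed, 12 were on the array, and 3 were well above background on every array (Il18, Il33 and Csf1), against 52.1% of all gene symbols. Il1a, Il1b, Tnf, Il6, Ifng, Ifnb1, Il17a, Csf2 and Csf3 were well above background on none. Il18, an interleukin of the interleukin-1 family, differed by 1.43 and 2.04 between 3D and 2D (adjusted p = 0.684, limma). All 15 genes of a list of Toll-like receptors and of receptors for interleukin-1, TNF, lymphotoxin, interleukin-6, interleukin-17 and interferons were well above background on every array (52.1% of all gene symbols). Of these, 9 were higher in 3D in each experiment (33.2% of all genes) and 2 lower (33%), and 0 of them reached 2-fold in each. Il6ra, an interleukin-6 receptor chain, differed by 0.81 and 1.83 and Tlr3, a sensor of double-stranded RNA, by 0.85 and 0.79. Tlr2, a sensor of bacterial lipoproteins, differed by 0.18 and 1.06 between cultures and by -4.07 in 3D and -4.94 in 2D between iHep-2 and iHep-1 (adjusted p = 0.0605, limma).

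Intracellular signalling genes upstream of chemokines were measured too. Of 20 NF-kB pathway genes, 19 were tested, 6 were higher in each experiment (33.2% of all genes) and 4 lower (33%), and 0 of them reached 2-fold in each (median 0.024). Nfkbie, an inhibitor of NF-kB, differed by -0.55 and -0.52 and Nfkbia, the prompt feedback inhibitor, by -0.14 and -0.063. Of 10 interferon signalling factors all were tested, with a median of 0.040, and 0 of them reached 2-fold in each experiment. Socs1, a feedback inhibitor, differed by -1.66 and -0.64 and Irf1, a transcription factor that drives Cxcl10, by -1.03 and -0.38. Of 11 genes of chemokine processing and mRNA decay, 8 were tested (median -0.18), and Zfp36, which destabilises chemokine mRNAs, differed by -0.13 and -0.35. No gene of these lists passed the test between cultures (adjusted p from 0.684, limma).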

How the data were processed

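RNA of 4 cultures was hybridised to 1-colour Agilent arrays of design 014868 with Cy3, per the labels' protocols. The deposited scanner files hold linear intensity values and per-spot flags from Agilent Feature Extraction, given as version 9.5.1.1 in the submitters' processing notes but as 10.7.1.1 in the headers, which also name build mm9. All 4 arrays shared 1 slide, per the file headers. The authors' series table holds linear intensity values of unstated scaling (column median 22.6 in the 2 iHep-2 arrays and 26.3 in the 2 iHep-1 arrays), and it served as an alternative.

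Log2 of the processed signal minus each array's 75th percentile was used. Outlier spots were left out (72 to 85 per array), spots of a probe were averaged, and no spot was saturated. Probes were named through RefSeq (GRCm38.p6, names and promoters): 24844 by accession, 7855 by symbol or synonym, and 8475 of 41174 kept the files' name. A gene was tested by its brightest probe where that probe passed the well-above-background flag on 2 or more arrays. limma 3.58.1 in R 4.3.3 was run two-sided across all 16450 genes, with Benjamini-Hochberg adjustment, 2 residual degrees of freedom and a threshold of 0.05, and was tested on simulated data, where at the spread of these arrays moderate planted changes were not called and only large ones mostly were; a count of 0 therefore does not show that cultures are alike. The labels name no separate cultures within an experiment, so p-values measure the spread between these arrays. Replicate numbers mark the experiment and pair the arrays: deviations of same-numbered arrays correlated (r = 0.66). The main fit does not use this pairing. With the experiment as a block, the adjusted p between cultures was 0.283 for Ccl7, 0.373 for Cxcl10 and 0.399 for Cxcl16 (limma). A fold is given as at least a value where no array of a group was well above background, set against the array's lowest such signal.

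Each ligand with a probe well above background on at least 1 array is given with its values. Of the other lists up to 5 genes each with the largest shared difference are eligible. Further genes named (marker genes, Adam10, Nfkbia, Tlr2, Ccr6, Ccr4, Cxcr3) were chosen after their values were seen. Members and lists were chosen with earlier results of these data known. Alternatives were another background correction, 3 scalings, the series table, 2 filters, the mean of probes, blocks, a trended prior and leaving out each array.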

Additional observations from a re-analysis of the deposited data

Results flagged for a closer look

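For 10 of the 19 tested ligands the difference between 3D and 2D had opposite signs in the 2 experiments, which each supplied 1 array per culture. Whether the experiments differed was not tested, since no residual degrees of freedom remain. The gap was widest for Ccl17, at 0.55 in iHep-1 and -3.22 in iHep-2, and for Ccl2, at 2.66 and -0.41. Ccl9 stood at -0.25 and 2.10, Cx3cl1 at 0.88 and -1.04, and Ccl5 at 1.42 and -0.18. Ccl28, dim in iHep-1, stood at -0.71 and 0.81. Cxcl17 differed by 1.07 and -0.24, Ccl25 by 0.76 and -0.11, Ccl19 by -0.22 and 0.61, and Ccl27 by -0.18 and 0.58.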

How the results depend on the processing

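Between 3D and 2D, 0 genes were called under 13 of 14 alternatives, which says nothing about stability, since this design rarely called moderate changes planted in simulated data; the count was 291 (76 higher, 215 lower) with spike-in scaling. With the experiment as a replicate block it was again 0, with 2178 genes at an unadjusted p under 0.05 against 1157 without it, and 3 members (13.2% of all genes) against 1; the block changed no call of a member. The members' median of 0.20 was -0.90 with spike-in scaling. At least 2-fold higher in both experiments were 0 members with normexp, 0 with spike-in scaling and 3 of 34 with no filter on dim probes; at least 2-fold lower were 0 and 4 under the first 2 of these. Among all genes these splits were 168 and 3328 with spike-in scaling, 331 and 130 with normexp and 562 and 465 with median scaling, against 700 and 350.

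Between iHep-2 and iHep-1, 54 genes were called (21 higher, 33 lower). The count was 103 with normexp, 126 with quantile normalization, 163 with median scaling, 401 with spike-in scaling (201 higher, 200 lower), 136 from the authors' series table, 3 when all 4 arrays had to pass the background flag, 303 with culture as a block, 31 with a trended prior, and 0 to 0 when 1 array was left out. A single array left in a group was assumed to vary like the others. The members' median of 0.17 ran from -0.25 to 0.34 over the left-out arrays. At least 2-fold higher in both cultures was 1 member and at least 2-fold lower 0, both with normexp and over probes bright on all 4 arrays, against 2 and 2. Ccl20 had an adjusted p of 0.00292 (difference 4.58, limma) with spike-in scaling, against 0.415 in the main fit (limma). That low value rests on the spread that limma takes from all genes under this scaling. Normexp adds an offset of 50 intensity units, which by construction shrinks differences of dim probes; other causes were not tested. Detection gave 29 genes by the weaker flag of a positive and significant signal and 20 when all probes of a gene had to pass, against 21. Dim signals limit Ccl6, Ccl28, Cxcl2, Cxcl5 and Cxcl15. Ccl7 and Ccl20 are limited too, although their tested probes passed the flag on every array. The tested Ccl7 probe had 14.4 and 12.4 intensity units in 2D, and Ccl20 had 11.6 in 3D of iHep-1. With normexp their mean culture differences were 0.60 and -2.09, and neither stayed 2-fold in both experiments.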

Other observations

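Ligands of the chemokine family outside the name rule were Xcl1, Pf4 and Ppbp. Xcl1 was well above background in 3D of iHep-1 alone, at 21.8 and 4.63 intensity units in 3D against 6.19 and 6.46 in 2D, the array that also carried the detected signals of Cxcl2 and Cxcl5. The platelet chemokines Pf4 and Ppbp were not well above background on any array. On the same array the fibroblast collagens Col1a1 (66.8 and 1.92 in 3D, against 2.42 and 1.83 in 2D) and Col3a1 (13.5 and 2.36 in 3D, against 1.84 and 4.86 in 2D) were detected and on no other. Col1a2 was detected on all 4 arrays, with culture differences of 1.23 and 0.22. Pdgfrb had the opposite sign, with differences of -1.08 and -3.33, the 3D signal of iHep-2 being below background. Of 8 fibroblast markers, 6 were well above background on at least 1 array, against 63.7% of all gene symbols. They numbered 6 and 3 in 3D and 4 and 4 in 2D, against 56.0% to 59.3% of all probes per array. Thy1 and Dcn were well above background on no array. The list's summed signal was 20211 and 8995 intensity units in 3D, against 9062 and 38718 in 2D, most of it Vim. The part of such cells in the signals of Xcl1, Cxcl2 and Cxcl5 was not tested.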
